A study of Arabidopsis thaliana with 22 samples.

Results

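The comparison described here sets 11 count columns of a UV experiment in Arabidopsis thaliana, Sample_12 to Sample_22, against the 11 columns Sample_1 to Sample_11, with each column also placed in 1 of 6 genotype blocks. The 22 columns are all those of the deposited count table, which lists 24185 loci. A block holds columns that share the on or off state of the genes AOP3, GSL-OH, ESP and FLC, so the blocks were drawn from the counts and not from the sample labels. Block 1 sets Sample_12 against Sample_1 and Sample_3, block 2 Sample_13 and Sample_14 against Sample_2 and Sample_4, and block 3 Sample_15 and Sample_16 against Sample_5 and Sample_6. Block 4 sets Sample_17 and Sample_18 against Sample_7, block 5 Sample_19 and Sample_20 against Sample_8 and Sample_9, and block 6 Sample_21 and Sample_22 against Sample_10 and Sample_11. In what follows the sets are called columns 12 to 22 and columns 1 to 11.

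The study asked how gene transcription responds to UV in natural accessions, which are inbred wild strains. Seedlings were raised on soil for 14 days (16 h of light of about 150 µmol at 22 °C, 8 h of darkness at 18 °C, 50% humidity). They received UV from fluorescent tubes, at 4.35 W per square metre at 312 nm, or a mock treatment, and whole plants were frozen after 3 h. How long the exposure lasted was not stated in the labels.

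By their labels, columns 12 to 22 are the UV and mock libraries of Lip-0, Mh-0 and T1080 (6 UV and 5 mock), and columns 1 to 11 are those of Ba-1, C24 and Got-7 (5 UV and 6 mock). No labelled accession has columns in both sets, and none of the 6 blocks lies within 1 labelled accession. The sets and the blocks therefore cut across the labels. If the labels hold, the difference between the sets cannot be told apart from a difference between accessions. The sets may instead be UV and mock samples in another column order, which was not tested. The shapes of the layouts are alike: 4 blocks have 2 columns in each set, 1 block has 1 column among columns 12 to 22 and 2 among columns 1 to 11, and 1 block has 2 among columns 12 to 22 and 1 among columns 1 to 11. The labelled accessions have the same shape for UV and mock, with 2 UV and 2 mock in Ba-1, C24, Lip-0 and Mh-0, 1 UV and 2 mock in Got-7, and 2 UV and 1 mock in T1080. Nothing in the labels says that libraries of 1 group came from separately grown plants, so the spread between columns may be technical.

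UV-B light is sensed in plants by the photoreceptor UVR8, which acts through COP1 and HY5 on flavonoid genes, the photolyase gene PHR1 and the ELIP genes. Strong or unfiltered UV also damages DNA and proteins and is known to switch on defence, detoxification and mitochondrial stress genes, many of them also responsive to pathogens and reactive oxygen. Growth genes, such as those for expansins and mitotic cyclins, are commonly held down in stressed seedlings. This is background and not a result.

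The 4 genes behind the blocks took these levels, in CPM, that is, in counts after every column was scaled to 1 common total. CPM of these genes and of the named genes below also use edgeR's TMM factors, while marker sums, the on or off loci and the limits of 3 counts use plain column totals. ESP, whose protein turns glucosinolate breakdown products into epithionitriles, was at 19.3 CPM in the 1 column of block 1 among columns 12 to 22 and at 30.4 and 35.2 CPM in Sample_1 and Sample_3, and at 815 CPM or more in every other column. GSL-OH, a glucosinolate side chain hydroxylase gene, was at 0.838 to 0.987 CPM in columns 12 to 22 of block 2 and 0.581 to 1.09 CPM in columns 1 to 11 of that block. In block 5 it was at 191 to 199 CPM in columns 12 to 22 and 266 to 294 CPM in columns 1 to 11. AOP3, a glucosinolate side chain gene, was on in block 6 alone, at 49.8 to 60.4 CPM in columns 12 to 22 and 387 to 414 CPM in columns 1 to 11. FLC, a repressor of flowering, was at 6.90 CPM or less in blocks 5 and 6 and at 66.3 CPM or more in the other blocks. Blocks 3 and 4 share their states at all 4 genes and are not told apart by them.

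Other loci, which the blocks were not drawn from, were then examined for the same kind of on or off pattern. Among the loci that were either under 0.5 CPM or at 10 CPM or more in every column, 55 took both states. Of these, 42 had 1 state in every block, and 8 had 1 state in every labelled accession. All 15 pairs of blocks were told apart by 12 to 29 of these loci, blocks 3 and 4 by 13. The 8 loci with 1 state in every labelled accession are those that follow the set, on in all of columns 12 to 22 and off in all of columns 1 to 11, and 0 loci followed the accessions in another way. One of them was DLAH, a gene of the DAD1-like acylhydrolase family, at 10.8 to 44.6 CPM in columns 12 to 22 and 0 to 0.275 CPM in columns 1 to 11. The other 7 have no symbol in the reference, and AT3G54530, chosen after its values were seen, was at 13.7 to 43.5 CPM in columns 12 to 22 against 1 count in all of columns 1 to 11 together.

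The difference between the sets was large. It is given as a log2 difference, columns 12 to 22 minus columns 1 to 11, from an edgeR fit with the block as a term, with its standard error (SE). The SE treats the columns of a block and set as separate and does not measure the spread between blocks. For ELIP2 the SE was 0.20, while the standard deviation of its 6 block differences was 1.38. Because the sets were proposed from these counts, the differences are descriptions and carry no test. A locus is called where the fitted difference is at least 1 in log2, or 2-fold, with the same sign in all 6 blocks. Of 18149 loci with enough counts, 2605 (14.4%) were called higher in columns 12 to 22 and 1357 (7.48%) were called lower. The differences just inside and just outside the threshold were 1.0004 and 0.9998 for higher loci and -1.0004 and -0.9999 for lower loci. The median over all loci was -0.01. The median of the loci called higher was 2.09 and that of the loci called lower was -1.36, and the higher group reached further: 336 loci were at least 32-fold higher, against 1 locus at least 32-fold lower. All 11 columns of 12 to 22 lay above all 11 of 1 to 11 at 2439 loci (13.4%) and below them at 1960 loci (10.8%). Of the called loci, 1693 of the higher and 866 of the lower were separated in this way, and 23 of the higher had no count in columns 1 to 11.

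The loci called higher held 15.0 to 28.7% of all counts in columns 12 to 22, with a median of 18.2%, and 3.44 to 5.59% in columns 1 to 11, with a median of 3.66%. The loci called lower held 3.21 to 5.73% (median 5.18%) in columns 12 to 22 and 11.4 to 12.9% (median 12.0%) in columns 1 to 11. Neither pair of ranges overlapped, and these shares are again what the calls chose. The 2 columns of block 3 stood at the extreme of both measures among columns 12 to 22.

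**Figure D1:**
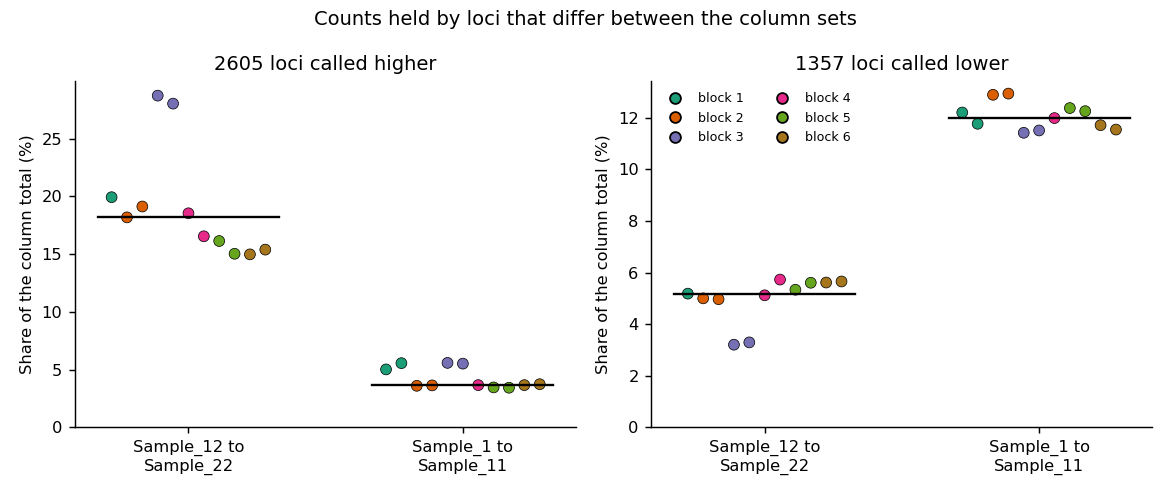
Share of each column's total count (%, vertical axis from 0) held by the loci called higher (left) and lower (right), with columns 12 to 22 left of columns 1 to 11; points are columns coloured by block and lines are medians. The 2 columns of block 3 hold the highest share of loci called higher and the lowest share of loci called lower within columns 12 to 22.

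Column totals were 6402500 to 19546141 counts (median 9451357) in columns 12 to 22 and 3539510 to 20903894 (median 7059048) in columns 1 to 11. A count of 3, taken as the limit that a count of 0 allows, equals 0.153 to 0.469 CPM in columns 12 to 22 and 0.144 to 0.848 CPM in columns 1 to 11. Such limits cover counting error only. Chloroplast-encoded loci held 0.112 to 0.414% of counts in columns 12 to 22 and 0.0366 to 0.313% in columns 1 to 11. The leaf genes LHCB1.1, RBCS1A and RCA summed to 14355 to 22611 CPM in columns 12 to 22 and 22923 to 28024 CPM in columns 1 to 11, and these ranges did not overlap. Of 8 root markers only 2 passed the count filter, and their sum, nearly all of it PYK10, was 54.2 to 224 CPM in columns 12 to 22 and 90.1 to 259 CPM in columns 1 to 11, although whole seedlings are the labelled tissue. The 7 flower markers summed to 0.156 to 2.12 CPM in columns 12 to 22 and 0.934 to 5.31 CPM in columns 1 to 11, and 2 of the 3 that passed the filter were called lower. The 4 seed markers, of which 0 passed, summed to 0.106 to 1.76 CPM in columns 12 to 22 and 0 to 0.493 CPM in columns 1 to 11. Fewer cells of a type and less RNA per cell cannot be told apart in such bulk samples, and their part in the differences below was not tested. Sample_3 stood above the other columns of 1 to 11 at many loci called higher, so values without it are given after the gene groups.

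The 10 named genes with the largest positive differences were led by UGT74E2 (AT1G05680), which encodes a glucosyltransferase acting on the auxin precursor indole-3-butyric acid. It was at 497, 746 and 1433 CPM (lowest, median and highest) in columns 12 to 22, against 0, 0.416 and 9.25 CPM in columns 1 to 11. The sets did not overlap, and the fitted difference was 9.67 ± 0.38 (SE, from 11 and 11 columns that fall in 6 blocks). GSTU9 (AT5G62480), a tau-class glutathione transferase gene, was at 226, 306 and 429 CPM in columns 12 to 22, against 0, 0.136 and 1.71 CPM in columns 1 to 11, a difference of 9.34 ± 0.26. ELIP2 (AT4G14690), whose protein binds chlorophyll under light stress, was at 69.3, 130 and 153 CPM in columns 12 to 22, against 0, 0.467 and 0.861 CPM in columns 1 to 11. Its difference was 7.91 ± 0.20, again without overlap. WRKY40 (AT1G80840), a transcription factor of defence and abscisic acid responses, was at 250, 374 and 986 CPM in columns 12 to 22, against 0.160, 0.448 and 22.0 CPM in columns 1 to 11. ACS2 (AT1G01480), which encodes an enzyme making the ethylene precursor, was at 53.7, 157 and 356 CPM in columns 12 to 22, against 0, 0.155 and 6.63 CPM in columns 1 to 11. All 10 genes were separated between the sets.

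Of these 10 genes, 4 were close to silent in columns 1 to 11. HSP23.6-MITO (AT4G25200), a small heat shock protein of mitochondria, had 2520 counts in columns 12 to 22 and 4 counts in columns 1 to 11 over all columns. CYP96A5 (AT2G21910), a cytochrome P450 gene, had 2939 counts in columns 12 to 22 and 5 in columns 1 to 11, and PP2-B14 (AT1G56250), which encodes an F-box protein of the phloem protein family, had 2613 in columns 12 to 22 and 5 in columns 1 to 11. BHLH92 (AT5G43650), a transcription factor gene, had 2885 counts in columns 12 to 22 and 8 in columns 1 to 11, all 8 of them in Sample_3. Their fitted differences (8.91, 8.69, 8.34 and 8.03) rest on so few counts that they depend on the fit's prior count.

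**Figure D2:**
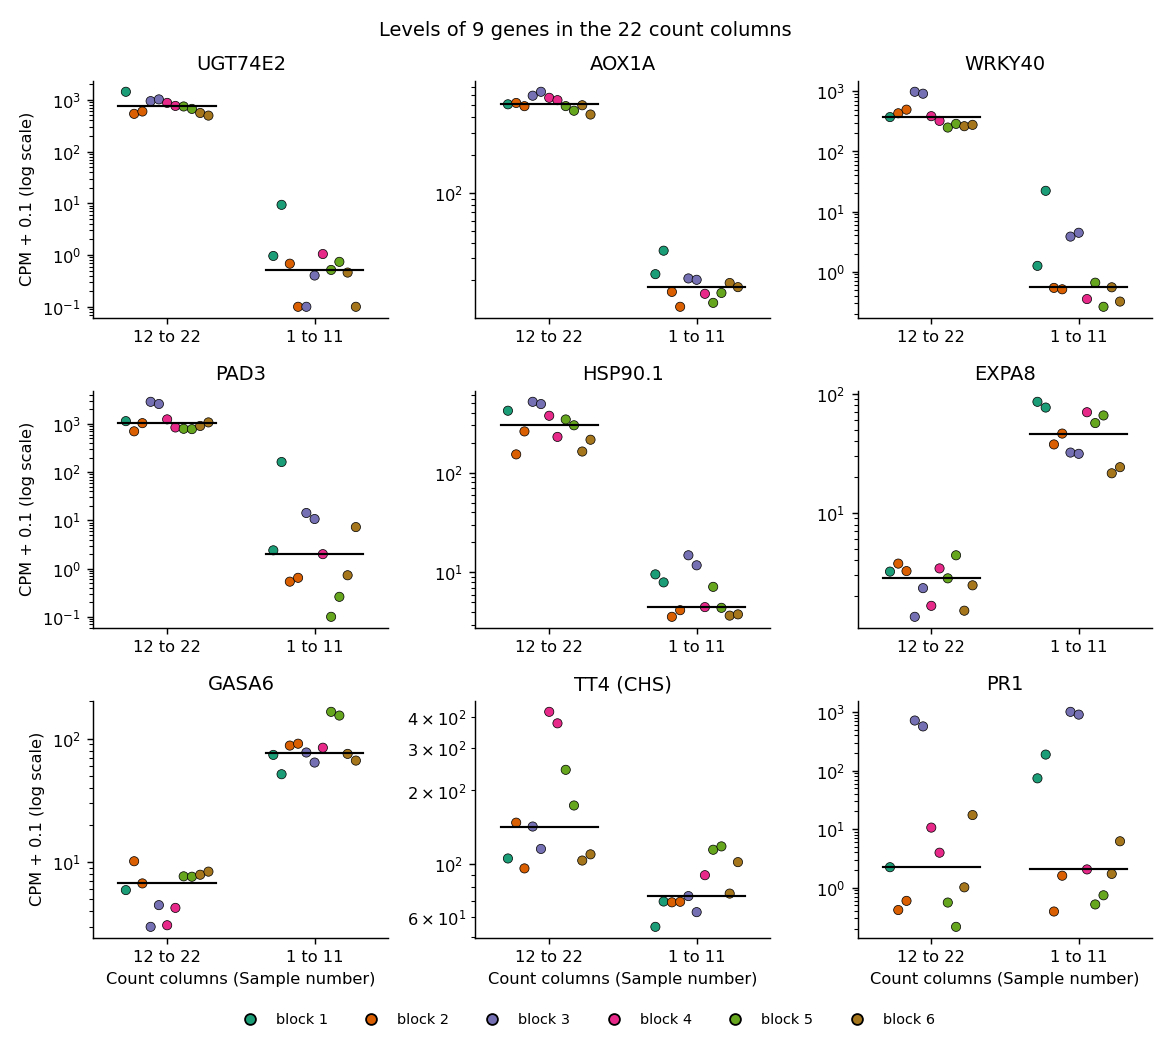
CPM plus 0.1 on a log axis for 9 genes in all 22 columns, with columns 12 to 22 left of columns 1 to 11; points are columns coloured by block and lines are medians. UGT74E2, AOX1A, WRKY40, PAD3 and HSP90.1 lie higher and EXPA8 and GASA6 lower in columns 12 to 22 without overlap. TT4 and PR1 overlap between the sets. PR1 is highest in block 3 in both sets, while TT4 is highest in block 4 in columns 12 to 22 only.

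Promoters were read from the RefSeq genome TAIR10.1 as the 250 bases before each annotated gene start, for 18048 of the 18149 loci. The sequence elements searched in them were chosen with earlier results of these data known, so their shares are descriptions and carry no test. The W box, the element that WRKY factors bind, was searched as TTGACC or TTGACT on both strands. It was found in 41.3% of the 2551 loci called higher that have such a promoter, in 53.3% of the 336 called higher by at least 5 in log2, in 21.1% of the 1357 called lower and in 28.4% of all promoters. Of the 62 named genes called higher, 31 held a W box, and of the 22 named genes called lower, 2 did. None was found in UGT74E2, CYP96A5, PAD3, WRKY40, ELIP2, ACS2 and FMO1, whose differences are also among the largest. The 5 promoters with the largest differences among named genes that hold a W box are printed to show how near the gene start it lies and whether it is repeated. Capitals mark W boxes, written GGTCAA or AGTCAA where they lie on the other strand. They begin at -48 in GSTU9 (chr5:25089627-25089876, minus strand), at -140 and -132 in HSP23.6-MITO (chr4:12916676-12916925, plus strand) and at -25 and -6 in PP2-B14 (chr1:21063048-21063297, minus strand). They begin at -210, -175 and -108 in BHLH92 (chr5:17534797-17535046, minus strand) and at -62 in AOX1D (chr1:11668691-11668940, minus strand). NAC044 (chr3:228825-229074, plus strand), the named gene whose promoter holds CTTG and CAAG with any 5 bases between them, an element bound by NAC factors of the mitochondrial stress response, is printed last with that element in capitals, at -65.
GSTU9: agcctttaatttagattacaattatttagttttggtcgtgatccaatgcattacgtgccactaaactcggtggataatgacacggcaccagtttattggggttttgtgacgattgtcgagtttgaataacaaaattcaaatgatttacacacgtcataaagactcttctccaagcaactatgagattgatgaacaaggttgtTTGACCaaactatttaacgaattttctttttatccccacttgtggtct
HSP23.6-MITO: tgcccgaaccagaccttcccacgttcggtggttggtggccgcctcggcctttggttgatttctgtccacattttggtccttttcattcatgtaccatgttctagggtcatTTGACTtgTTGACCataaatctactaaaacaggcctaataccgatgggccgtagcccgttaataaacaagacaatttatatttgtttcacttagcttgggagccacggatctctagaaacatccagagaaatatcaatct
PP2-B14: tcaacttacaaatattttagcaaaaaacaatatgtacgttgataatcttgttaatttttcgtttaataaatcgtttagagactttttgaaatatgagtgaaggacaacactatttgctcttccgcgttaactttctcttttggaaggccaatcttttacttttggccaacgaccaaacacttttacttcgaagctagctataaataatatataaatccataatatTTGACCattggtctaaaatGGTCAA
BHLH92: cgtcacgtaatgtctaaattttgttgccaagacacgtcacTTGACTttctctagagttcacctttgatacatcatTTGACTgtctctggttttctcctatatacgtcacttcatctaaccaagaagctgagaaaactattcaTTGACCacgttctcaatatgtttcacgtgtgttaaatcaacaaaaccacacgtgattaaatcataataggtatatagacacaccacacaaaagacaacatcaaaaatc
AOX1D: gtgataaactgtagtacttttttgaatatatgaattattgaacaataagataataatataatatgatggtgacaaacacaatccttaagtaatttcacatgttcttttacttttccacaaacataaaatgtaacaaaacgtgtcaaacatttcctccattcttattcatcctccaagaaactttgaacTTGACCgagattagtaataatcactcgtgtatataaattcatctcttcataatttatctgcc
NAC044: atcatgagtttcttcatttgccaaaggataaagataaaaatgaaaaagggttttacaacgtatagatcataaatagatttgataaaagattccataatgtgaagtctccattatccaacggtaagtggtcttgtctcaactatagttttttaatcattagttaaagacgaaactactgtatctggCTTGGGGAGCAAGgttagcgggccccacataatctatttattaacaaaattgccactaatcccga

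This NAC element was found in 104 promoters in all, or 0.576%. It was in 1.92% of promoters of loci called higher and 0.221% of those called lower, and 49 of the 104 loci (47.1%) were called higher. It was in 3 of the 14 promoters of the mitochondrial stress list. The heat shock element, searched as GAA, TTC and GAA with any 2 bases between each, was in 4 of 17 promoters of the heat shock list, against 0.41% of all promoters. The G box CACGTG, bound by HY5 among others, was in 8.15% of promoters of loci called higher, 6.12% of those called lower and 7.46% of all. The shares in loci called higher, called lower and all were 3.41%, 2.87% and 3.43% for CCGACC of cold genes, 4.55%, 5.01% and 3.97% for ACGTGGC of abscisic acid genes, and 3.21%, 3.83% and 2.6% for AAAATATCT, the evening element. These matches describe letters in a window and not binding.

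All 14 genes of the mitochondrial stress and alternative respiration list were called higher in columns 12 to 22, with a median of 5.00. Of all loci tested, 14.4% were called higher and 7.48% lower, and the counts of this and the later lists stand beside these shares. The lists were chosen with earlier results of these data known. Their counts are therefore descriptions, and a share above that of all loci may come from the choice of members. AOX1A (AT3G22370), the main alternative oxidase gene, was at 421, 508 and 639 CPM in columns 12 to 22, against 12.2, 17.6 and 34.5 CPM in columns 1 to 11. The sets were far apart, and the difference of 4.86 ± 0.11 held between 4.19 and 5.16 in the 6 blocks. NDB4 (AT2G20800), an alternative NADH dehydrogenase gene, was at 21.0, 29.3 and 53.1 CPM in columns 12 to 22, against 0, 0.136 and 0.861 CPM in columns 1 to 11, a difference of 7.26 ± 0.19. The related dehydrogenase genes NDB2, NDA2 and NDA1 had differences of 4.37, 3.15 and 1.98. AOX1D (AT1G32350), a further alternative oxidase gene, was at 28.7, 110 and 505 CPM in columns 12 to 22, against 0, 0 and 28.9 CPM in columns 1 to 11. Its sets overlapped by 1 column, Sample_3, which held the 28.9 CPM. Among the factors of this response, NAC13 had a difference of 4.68 ± 0.10 and NAC017, which acts upstream of it, 1.02 ± 0.05, the smallest of the list. The outer membrane AAA protein gene BCS1 stood at 6.27 and the dicarboxylate carrier gene DIC2 at 3.58. The 3 members without a reference symbol, AT5G51440, AT2G21640 and AT5G09570, had differences of 7.71, 5.75 and 5.14. The medians of the list in the 6 blocks lay between 4.76 and 5.57.

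Detoxification genes followed. Of 24 glutathione transferase genes tested, 18 were called higher and 1 lower, with a median of 2.17. GSTU24 was at 135, 296 and 483 CPM in columns 12 to 22, against 0, 0.959 and 85.4 CPM in columns 1 to 11. GSTU4 was at 136, 212 and 612 CPM in columns 12 to 22, against 0, 0.726 and 28.1 CPM in columns 1 to 11. Neither gene overlapped between the sets, and in both the highest value of columns 1 to 11 was that of Sample_3. GSTF8 (AT2G47730), a phi-class member, was among the 4 steadiest genes called higher that have a symbol, a mean of at least 10 CPM and a difference of at least 2. It was at 582, 995 and 1608 CPM in columns 12 to 22, against 156, 230 and 406 CPM in columns 1 to 11, a difference of 2.1 ± 0.05 that lay between 1.92 and 2.24 in the blocks. Of 6 stress-linked glycosyltransferase genes, 4 were called higher, with a median of 5.13. DOGT1 (UGT73C5), whose product inactivates a fungal toxin and brassinosteroids, was at 83.7, 114 and 213 CPM in columns 12 to 22, against 1.15, 4.79 and 8.41 CPM in columns 1 to 11. Many of these genes lie in clusters of close copies, and how reads that match several copies were counted is not stated in the labels.

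Camalexin, the main defence alkaloid of Arabidopsis, is made from tryptophan. Of 20 genes of tryptophan, camalexin and indolic glucosinolates, 16 were called higher and 1 lower, with a median of 2.47. PAD3 (AT3G26830), which encodes the last enzyme of the camalexin pathway, was at 704, 1040.5 and 2884 CPM in columns 12 to 22, against 0, 1.90 and 163 CPM in columns 1 to 11. The sets did not overlap, with Sample_3 at 163 CPM and every other column of 1 to 11 at 14.1 CPM or less, and the difference was 8.19 ± 0.78. CYP71A13, which makes the nitrile precursor of camalexin, was at 132, 236 and 1969 CPM in columns 12 to 22, against 0.145, 1.15 and 250 CPM in columns 1 to 11. Here Sample_3, at 250 CPM, lay within the range of columns 12 to 22. Its neighbour CYP71A12 was at 50.6, 98.2 and 629 CPM in columns 12 to 22, against 0, 0.287 and 38.8 CPM in columns 1 to 11, and as near-identical copies they may share reads. In the phenylpropanoid pathway, which supplies lignin and flavonoids, 5 of 16 genes were called higher and 1 lower, with a median of 0.56. These are 31.2% and 6.25%, against 14.4% and 7.48% of all loci. PAL1, for the first enzyme, was at 200, 318 and 611 CPM in columns 12 to 22, against 51.4, 71.1 and 101 CPM in columns 1 to 11, while PAL3 was called lower at -1.83 ± 0.11.

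Among hormone lists, 18 of 23 salicylic acid genes were called higher and none lower (median 1.94), and 14 of 20 ethylene genes (median 2.66). FMO1, which makes the systemic defence signal N-hydroxypipecolic acid, was at 61.8, 116 and 1032 CPM in columns 12 to 22, against 0, 0 and 9.43 CPM in columns 1 to 11. ALD1, which acts before it, was at 40.3, 71.5 and 376 CPM in columns 12 to 22, against 0, 0.145 and 17.2 CPM in columns 1 to 11. PBS3, a gene of salicylic acid synthesis, was at 67.6, 150 and 804 CPM in columns 12 to 22, against 1.15, 2.91 and 21.9 CPM in columns 1 to 11. All of these were separated. PR1 (AT2G14610), the classical salicylic acid marker, was not called. It was at 0.114, 2.13 and 714 CPM in columns 12 to 22, against 0.291, 1.95 and 1005 CPM in columns 1 to 11, and its difference was -0.44 ± 0.72. In block 3, PR1 was at 714 and 567 CPM in columns 12 to 22 and at 1005 and 901 CPM in columns 1 to 11. In block 1 it was at 2.13 CPM in Sample_12, against 73.4 and 187 CPM in Sample_1 and Sample_3.

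Of 21 jasmonate genes, 10 were called higher and none lower, with a median of 1.45. AOC3, which encodes an enzyme of jasmonate synthesis, was at 98.4, 148 and 335 CPM in columns 12 to 22, against 0.145, 2.61 and 11.7 CPM in columns 1 to 11. JAZ5, a repressor that jasmonate itself induces, was at 13.2, 49.6 and 132 CPM in columns 12 to 22, against 0.160, 1.26 and 5.98 CPM in columns 1 to 11. Both were separated, whereas the late response genes VSP2 and PDF1.2 were not called. VSP2 had a difference of -0.25 ± 0.52 and PDF1.2 one of -2.56 ± 1.15. ERF1, an ethylene and jasmonate response factor, was at 4.86, 14.5 and 88.6 CPM in columns 12 to 22, against 0, 0.199 and 1.77 CPM in columns 1 to 11. Of 13 abscisic acid and cold genes, 3 (23.1%) were called higher and 2 (15.4%) lower, against 14.4% and 7.48% of all loci (median 0.13). NCED3, for the rate-limiting enzyme of abscisic acid synthesis, was at 14.5, 24.4 and 56.8 CPM in columns 12 to 22, against 2.87, 4.65 and 5.47 CPM in columns 1 to 11. LTI78 (RD29A), a cold and drought gene, was at 11.9, 48.3 and 206 CPM in columns 12 to 22, against 29.5, 342 and 620 CPM in columns 1 to 11, and these ranges overlapped. DREB1A, a cold response factor, was called lower at -3.20 ± 0.20.

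Of 19 WRKY genes 17 were called higher, with a median of 4.16, of 15 pattern-triggered immunity genes 13 (median 2.61), and of 13 NLR receptor genes 7 (median 1.25), with none called lower in these 3 lists. WRKY30 was at 43.4, 62.3 and 205 CPM in columns 12 to 22, against 0, 0.136 and 3.73 CPM in columns 1 to 11. MPK11, a kinase gene of early immune signalling, was at 78.6, 144 and 411 CPM in columns 12 to 22, against 0.831, 3.39 and 27.0 CPM in columns 1 to 11. The helper receptor genes ADR1-L2, ADR1 and ADR1-L1 differed far less, by 1.85, 1.65 and 1.57. Of 16 NAC and senescence genes 15 were called higher (median 2.98). SAG21 was at 373, 692 and 1464 CPM in columns 12 to 22, against 3.49, 8.69 and 71.5 CPM in columns 1 to 11. Of 14 oxidative stress genes 7 were called higher (median 0.95), among them the zinc finger genes STZ (ZAT10, 6.26 ± 0.41) and RHL41 (ZAT12, 5.59 ± 0.26), while the catalase gene CAT3 stood at -0.79 ± 0.12 and the peroxidase gene APX1 at -0.08 ± 0.09.

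Of 17 heat shock genes tested, 12 were called higher, with a median of 2.67. HSP90.1, a cytosolic chaperone gene, was at 153, 300 and 516 CPM in columns 12 to 22, against 3.49, 4.39 and 14.8 CPM in columns 1 to 11. HSP70 (AT3G12580) was at 59.2, 247 and 311 CPM in columns 12 to 22, against 2.96, 5.96 and 12.0 CPM in columns 1 to 11. Both were separated. Chaperones of the endoplasmic reticulum differed less, with 5 of 15 called higher and a median of 0.18. BZIP60, a factor of the unfolded protein response, was at 147, 226 and 334 CPM in columns 12 to 22, against 12.9, 20.5 and 28 CPM in columns 1 to 11, but the constitutive chaperone genes BIP1 and BIP2 had differences of 0.00 and 0.13.

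The UVR8 list held 5 genes called higher of 14 (median 0.44). These were ELIP1, ELIP2, SIGE (SIG5), GPX7 and RUP1. HY5 (AT5G11260), the central factor of this pathway, was at 6.62, 13.6 and 17.4 CPM in columns 12 to 22, against 8.70, 12.6 and 16.2 CPM in columns 1 to 11. The range of columns 1 to 11 lay within that of columns 12 to 22, with a difference of -0.01 ± 0.11. RUP2, a repressor of UVR8, was at 2.41, 3.87 and 9.71 CPM in columns 12 to 22, against 1.72, 2.79 and 5.22 CPM in columns 1 to 11 (0.43 ± 0.22). SIGE, a chloroplast sigma factor gene, was at 19.4, 49.9 and 88.4 CPM in columns 12 to 22, against 3.59, 5.04 and 6.96 CPM in columns 1 to 11. The photoreceptor gene UVR8 itself stood at -0.29 ± 0.04 and COP1 at -0.42 ± 0.06, and neither was called.

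Only 1 of 20 flavonoid genes was called higher (F3H, 1.90 ± 0.22) and 1 lower (MYB111, a flavonol regulator, -1.70 ± 0.17), with a median of 0.49. Each is 5% of the list, against 14.4% higher and 7.48% lower over all loci. TT4 (CHS, AT5G13930), for the entry enzyme chalcone synthase, was at 95.4, 142 and 422 CPM in columns 12 to 22, against 54.8, 73.4 and 118 CPM in columns 1 to 11. The ranges overlapped, and the difference of 0.88 ± 0.16 lay between 0.28 and 2.16 in the blocks. The median of the flavonoid list was 2.13 in block 4, 0.61 in block 5, 0.21, 0.19 and 0.07 in blocks 1, 2 and 3 and -0.43 in block 6, so the blocks did not share a direction.

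Repair genes were split. Of 14 photolyase and excision repair genes, none was called, and the median was 0.04. PHR1, the photolyase for the main UV lesion, was at 4.25, 8.29 and 12.3 CPM in columns 12 to 22, against 3.49, 5.58 and 7.88 CPM in columns 1 to 11 (0.57 ± 0.13), with overlap. Of 21 DNA damage response genes, 9 were called higher and none lower (median 0.75). NAC085, a cell cycle arrest factor that acts with NAC044 downstream of SOG1, was at 7.63, 9.89 and 19.3 CPM in columns 12 to 22, against 0, 0 and 0.574 CPM in columns 1 to 11. NAC044 was at 8.92, 11.1 and 15.0 CPM in columns 12 to 22, against 0.436, 0.806 and 3.16 CPM in columns 1 to 11. GMI1, a repair gene, was at 13.6, 18.8 and 26.3 CPM in columns 12 to 22, against 2.58, 3.89 and 6.60 CPM in columns 1 to 11. PARP2, BRCA1, XRI1 and ATRAD17 were called at 1.59, 1.59, 1.80 and 1.1, as were AT3G27630 (4.35) and AT1G07500 (5.81), whereas the upstream kinase genes ATM and ATR stood at -0.30 and -0.27 and SOG1 at 0.30.

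**Figure D3:**
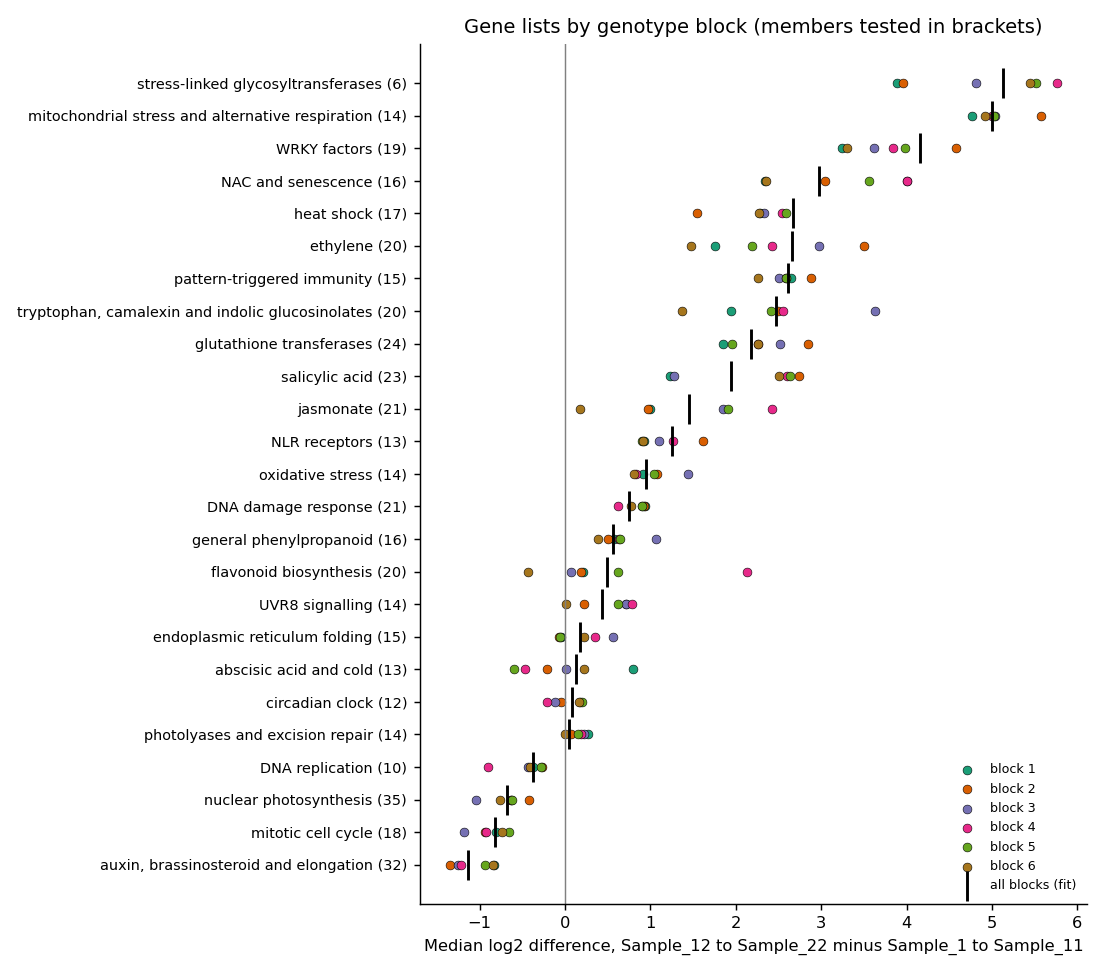
Median log2 difference (columns 12 to 22 minus columns 1 to 11, horizontal axis) of each gene list in each block (points) and from the fit over all blocks (bars), for lists with at least 5 tested members. The 6 blocks of the mitochondrial stress list lie between 4.76 and 5.57, while those of the flavonoid list run from -0.43 to 2.13.

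Growth genes were lower in columns 12 to 22. Of 32 auxin, brassinosteroid and elongation genes, 18 were called lower and 1 higher, with a median of -1.13. EXPA8 (AT2G40610), a cell wall loosening expansin gene, was at 1.25, 2.73 and 4.32 CPM in columns 12 to 22, against 21.4, 46.3 and 85.5 CPM in columns 1 to 11. It had the largest negative difference of the named genes, -4.12 ± 0.13, without overlap. GASA6 (AT1G74670), a gibberellin-regulated growth gene, was at 2.89, 6.61 and 10.1 CPM in columns 12 to 22, against 51.4, 77.1 and 165 CPM in columns 1 to 11 (-3.86 ± 0.16). CYCP4;1, a P-type cyclin gene, was at 0.0780, 1.68 and 3.30 CPM in columns 12 to 22, against 12.6, 14.7 and 18.2 CPM in columns 1 to 11. AGP21, an arabinogalactan protein gene, was at 4.45, 12.4 and 20.9 CPM in columns 12 to 22, against 68.7, 103 and 146 CPM in columns 1 to 11. These were separated, as were the E3 ligase gene RMA2 (-3.17), MYB48 (-2.83), the B-box gene BBX14 (-2.83), BZIP34 (-2.81), EXPA11 (-2.78) and the cutin ferulate gene DCF (-2.73). SHY2 (IAA3), an auxin repressor, was the steadiest of the named lower genes. It was at 5.72, 9.31 and 14.4 CPM in columns 12 to 22, against 25.8, 35.2 and 60.8 CPM in columns 1 to 11, and its difference of -2.1 lay between -2.17 and -2.0 in the blocks. The exception was TCH4, a cell wall enzyme gene also induced by touch, which was called higher at 2.37 ± 0.22.

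Of 35 nuclear photosynthesis genes, 5 (14.3%) were called lower and none higher, with a median of -0.68. Over all loci, 7.48% were called lower and 14.4% higher. RBCS1B, a gene for the small subunit of Rubisco, was at 234, 512 and 672 CPM in columns 12 to 22, against 1195, 1623 and 1913 CPM in columns 1 to 11, a difference of -1.81 ± 0.09 without overlap. Reads of RBCS1B may be shared with its near-identical neighbours, of which RBCS2B stood at -1.13 ± 0.06. PSAH2, for a photosystem I subunit, was at 298, 472 and 567 CPM in columns 12 to 22, against 944, 1016 and 1131 CPM in columns 1 to 11. Of 18 mitotic genes, 5 were called lower and none higher (median -0.82), among them CYCA1;1 at 5.54, 12.6 and 15.5 CPM in columns 12 to 22, against 20.6, 24.6 and 34.4 CPM in columns 1 to 11. All 18 had a negative difference, between -1.21 and -0.29. Of 10 DNA replication genes none reached the 2-fold threshold, but all 10 had a negative difference, between -0.71 and -0.16. PRL (MCM7), a helicase gene, had the largest (-0.71 ± 0.07). It was at 23.6 to 40.2 CPM in columns 12 to 22 and 46.6 to 59.7 CPM in columns 1 to 11, without overlap.

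Of 12 circadian clock genes, 3 (25%) were called higher and 1 (8.33%) lower, with a median of 0.08. The share called lower was close to the 7.48% of all loci, and 14.4% of all loci were called higher. The morning genes PRR9, RVE8 and CCA1 stood at 3.54, 2.31 and 1.67, and the clock output gene GRP7 (AT2G21660) was at 1624, 2468 and 3049 CPM in columns 12 to 22, against 3902, 4694 and 5451 CPM in columns 1 to 11. LHY, which pairs with CCA1, had a difference of 0.94 ± 0.18 and TOC1 one of -0.41 ± 0.05.

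The number of loci at least 1 higher in log2 within a block, whatever the other blocks showed, lay between 2525 in block 6 and 3386 in block 3, and that of loci at least 1 lower between 1242 in block 5 and 2701 in block 3. The called loci share their sign in all blocks by rule, so only the size of their medians is described. The median over loci called higher was 2.28 in block 3 and 2.25 in block 2, 2.01, 2.00 and 1.88 in blocks 5, 4 and 1, and 1.78 in block 6. Over loci called lower it was -1.82 in block 3, -1.47 in block 2, and between -1.26 and -1.15 in the other blocks. CRF6, a cytokinin response factor gene, was the steadiest named gene called higher. It was at 39.5, 51.0 and 83.8 CPM in columns 12 to 22, against 2.17, 3.49 and 8.61 CPM in columns 1 to 11, and its difference of 3.87 ± 0.10 lay between 3.72 and 3.96 in the blocks. TAT3, a jasmonate-responsive aminotransferase gene, varied most between blocks among the named genes called higher, from 3.20 to 11.4, and PAD3 lay between 5.86 and 12.2.

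One column of 1 to 11 weighed on many of the largest differences. Sample_3, labelled Ba-1 UV and placed in block 1, was the highest of columns 1 to 11 in 28 of the 62 named genes called higher, and Sample_1 of the same block in 10. Leaving out Sample_3 moved the fitted difference of 19 of the 62 genes by more than 1.5-fold, all of them upwards. BHLH92 then stood at 10.87, AOX1D at 10.65, ACS2 at 9.78, FMO1 at 9.04, WRKY40 at 8.81, PAD3 at 8.81, WRKY75 at 8.72 and UGT74E2 at 10.63. GSTU24, GSTU4, AGC2-1 (OXI1), CYP71A12, ALD1, CYP71A13, ERF1, STZ, ERF11, YLS9 (NHL10) and SAG13 moved too, to between 6.00 and 8.36. Leaving out Sample_12, the 1 column of block 1 among columns 12 to 22, takes block 1 out of the difference and moved 21 of the 62 genes by as much, all upwards, to between 5.98 and 10.9. These were the 19 genes that moved without Sample_3 and NAC085 (6.90) and RHL41 (6.27). Without Sample_11, TAT3 stood at 6.70 and CYP71A13 at 7.11, and without Sample_8 PP2-B14 stood at 8.95.

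The sample labels were compared next, since the rule did not use them. Columns labelled UV were tested against columns labelled mock within the same block and set by edgeR's quasi-likelihood F test with Benjamini-Hochberg adjustment. Of the 12 combinations of block and set, 8 hold both labels. Some of the 8 set different labelled accessions against each other. These are Sample_8 (C24 UV) with Sample_9 (Got-7 mock), Sample_15 (Lip-0 UV) with Sample_16 (Mh-0 mock) and Sample_19 (Mh-0 UV) with Sample_20 (T1080 mock). If the labels hold, treatment and accession cannot be told apart in those combinations. Of 18149 loci, 1 passed an adjusted p of 0.05 as higher in labelled UV (0.00551%) and 0 passed as lower (0%), and 695 had an unadjusted p under 0.05. The 1 locus was TPS02 (AT4G16730), a terpene synthase gene, at 16.0 CPM in Sample_3 and 1.96 CPM in Sample_11, both labelled UV, and at 0.359 CPM or less in every other column. Its log2 difference, UV minus mock, was 4.87 ± 0.61 (edgeR adjusted p = 0.000845, from the 8 UV and 8 mock columns of those combinations), and the call was lost when Sample_1, Sample_3 or Sample_11 was left out, and with DESeq2 or limma in place of edgeR, while 3 loci were called without Sample_13 or without Sample_14. The next loci, JAL23, ADT5, BT1 and SWEET2, had differences of 0.57, 0.20, 0.25 and 0.44 with edgeR adjusted p of 0.549, 0.549, 0.549 and 0.656. None of the genes in the lists was called.

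The intervals of the label comparison were narrow, but they describe only columns that share a block and a set. The 95% interval of the label difference lay within 1 in log2 of zero for 17399 loci (95.9%), and for 3721 of the 3962 loci called between the sets (93.9%). Over all 18149 loci, the median size of the label difference was 0.05, and that of the difference between the sets was 0.461. UGT74E2 had a label difference of 0.06, AOX1A -0.02, WRKY40 0.11, EXPA8 -0.03 and TT4 0.08. The columns compared share on or off states and a set, both of which were read from the counts, so the columns in a combination were grouped partly by likeness. Small label differences are partly what such grouping gives. In another column order, the columns of a combination could share 1 treatment, so the intervals set no bound on the effect of UV. Within columns labelled mock alone, 2659 loci were called higher in columns 12 to 22 and 1504 lower. Within columns labelled UV alone these numbers were 2513 and 1079. Only blocks 1, 2, 3 and 5 hold both sets among mock columns, and blocks 2, 4, 5 and 6 among UV columns. The same sign was asked for in those blocks alone, rather than in all 6. Differences between the sets were thus seen under either label, but the sets were read from these same counts.

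**Figure D4:**
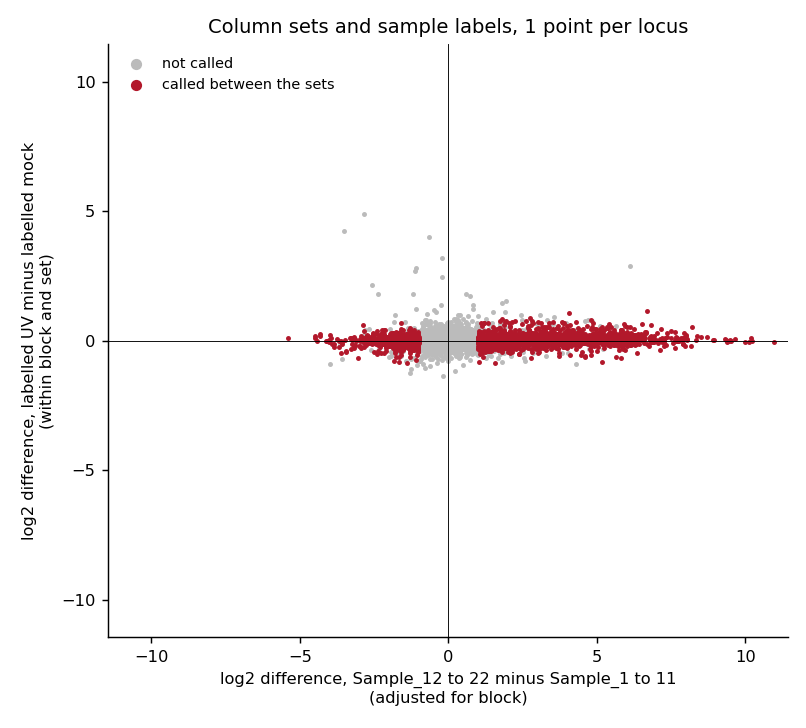
Each point is 1 of the tested loci, with the log2 difference between the column sets (columns 12 to 22 minus columns 1 to 11) on the horizontal axis and that between the labels (UV minus mock, within block and set) on the vertical axis, on equal scales. The loci called between the sets were selected on the horizontal value; over all loci the median size is 0.461 for the sets and 0.05 for the labels.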

How the data were processed

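The deposited table holds whole-number read counts per locus, with no normalization by the authors, for 22 libraries. Per the labels, RNA was isolated on RNeasy columns with DNase and made into TruSeq libraries. TopHat, FastQC and 2 genome builds, TAIR9 and TAIR10, were used per the submitters' processing notes, which give no versions or roles. The counting program and its use of strand were not stated. Columns were matched to samples by the number in their names (0 unmatched). Of 24185 loci, 23847 matched the RefSeq TAIR10.1 gene table and 9825 have a symbol there.

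The 18149 loci that reached 1 CPM in 2 or more columns were fitted in R 4.3.3 with edgeR 4.0.16 (TMM factors, quasi-likelihood, robust). The fit for the sets had block and set as terms, and that for the labels had 1 term per combination of block and set plus the label. SEs came from the difference and its F statistic, and block differences from mean log2 CPM with a prior count of 1. Both fits were tested on simulated data. Members, blocks, sets, gene lists and promoter elements were chosen with earlier results of these data known. Because the sets were read from the counts, no p-value is given for them. The named genes, with a symbol and a mean of at least 10 CPM in either set, were the 10 largest called differences in each direction, the 4 steadiest of at least 2 in log2 in each direction, up to 3 called members of each list (or the largest one where none was called), 7 genes fixed by name (CHS, HY5, RUP2, ELIP2, PHR1, AOX1A and PR1) and the loci with the smallest p for the labels. AT3G54530, DLAH and list members outside this rule were named after their values were seen. Promoters were matched for 18048 loci. Depth limits, as 3 counts, stand in the report. Alternatives were other scalings, filters, thresholds and designs, DESeq2 1.42.0, limma 3.58.1, and leaving out each column and each block.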

Additional observations from a re-analysis of the deposited data

Results flagged for a closer look

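For 5 genes the difference between the sets pointed one way in every column of 1 block and the opposite way in every column of another. The differences between blocks were not tested, and every value below is a log2 difference, columns 12 to 22 minus columns 1 to 11.

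PR1, the salicylic acid marker, was higher in block 4 (1.66) and lower in block 1 (-5.71), a gap of 7.37. JAL23, a jacalin lectin gene, was higher in block 4 (2.62) and lower in block 6 (-2.02), a gap of 4.64. BT1, a BTB and TAZ domain gene, was higher in block 3 (1.70) and lower in block 2 (-0.46), a gap of 2.16. RUP2, a UVR8 repressor, was higher in block 4 (1.54) and lower in block 2 (-0.49), a gap of 2.03. HY5, the central factor of light signalling, was higher in block 4 (0.80) and lower in block 6 (-0.39), a gap of 1.19. Block 4 was the higher block for 4 of the 5 genes, and it holds 1 column among columns 1 to 11. Each block has at most 2 columns in either set.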

How the results depend on the processing

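The number of loci called higher in columns 12 to 22 lay between 2543 and 2694 and the number called lower between 1246 and 1420 when each column was left out in turn, and the number of lists with a median of at least 1 in size was then 13 to 14, against 13 with all columns. Both counts stayed within 1.5 times of 2605 and 1357 under other scalings, filters, tools and block terms and without any 1 block, and no other scaling moved the median of all loci by more than 0.1. They moved with the threshold: 3038 loci were called lower at 1.5-fold, 1365 higher and 190 lower at 2 in log2, and 1693 higher and 866 lower where all 11 columns also had to lie beyond all 11. Over all these alternatives, 3566 values of the set difference of named genes moved by less than the standard deviation of that gene's 6 block differences. A further 77 values moved by more, and 0 changed sign among the called genes. This yardstick is wide for genes that vary between blocks, 2.8 in log2 for TAT3 and 2.18 for PAD3.

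The label comparison called 1 locus, and 0 to 3 when 1 column was left out. It called 0 with DESeq2 (222 at an unadjusted p under 0.05), and 0 with block and set as additive terms (413 unadjusted). The 1 locus that limma called was not TPS02. With the labels' replicate number as a replicate block it called 2. To see whether these numbers pair the libraries, the difference mock 1 minus mock 2 was correlated across loci with UV 1 minus UV 2. The correlation was 0.577 in Ba-1, -0.0031 in C24, -0.332 in Lip-0 and -0.28 in Mh-0. In Ba-1 both differences set a column of block 1 against a column of block 2. The numbers were not taken to pair the samples. JAL23 had a label difference of -0.0135 with additive terms, the cause of which was not tested. Depth limits the loci near 0 in columns 1 to 11, whose fitted differences depend on the prior count.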
